A study of Gallus gallus with 5 samples.

Results

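APOA1 and ABCA1 are the partners of the first step in the making of high density lipoprotein (HDL), and both are described here in the livers of laying hens kept on 2 feeding levels. APOA1 encodes apolipoprotein A-I, the main protein of HDL, which leaves the liver poor in lipid. ABCA1 encodes a membrane transporter that moves cellular cholesterol and phospholipid onto that protein. In the chicken, APOA1 is also made in many tissues outside liver and intestine, and a mutation of ABCA1, which lies on the Z chromosome, leaves the Wisconsin hypoalpha mutant chicken with almost no plasma HDL. The members were the 2 entries of the count table whose symbols are APOA1 and ABCA1, of 6286 entries in all, and both were among the 4309 genes that passed the filter on low counts. They were chosen by their measured FF against RF difference, which has opposite signs, so that difference is given below as a description with no test.

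Liver RNA was sequenced from 5 broiler breeder hens, which are the breeding parents of meat-type birds. FF hens (2) were fed ad libitum and RF hens (3) received a restricted allowance, each from 38 weeks of age. The labels give no genotype or line name, and their protocol speaks of 3 hens in either group, so 1 FF hen is not analysed here. Each library came from a hen with its own number in the labels. Library totals ranged from 2666609 (FF2) to 4622392 (FF1) estimated counts. FF2 stood apart from the other hens: its score on the first principal component (50.7% of the variance) was 44.5, and the remaining scores ran from -28.0 to -1.75. The table held 13 of the listed hepatocyte markers and 12 were detected, with a summed level of 110689 to 140285 CPM in FF and 111283 to 149241 CPM in RF (CPM, counts scaled to a common library size), and ALB was listed at 0 in all 5 hens. A value of 0 was therefore read only as listed at 0. The intestinal markers CDX1, CDX2 and FABP2 were listed at 0 in every hen.

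APOA1 was higher in both FF hens than in any RF hen. It stood at 30578 CPM in FF1 and 19217 CPM in FF2, and at 9466 CPM in RF1, 15925 CPM in RF2 and 7209 CPM in RF3. The groups did not overlap, but RF2 lay close under FF2. The step from RF2 to FF2 was 1.21-fold, smaller than the 1.59-fold spread within FF and the 2.21-fold spread within RF, so these neighbours in the order are not separated beyond the spread of their groups. The FF mean was 24898 ± 8034 CPM (SD, n = 2) and the RF mean 10867 ± 4523 CPM (SD, n = 3), a 2.29-fold ratio. The log2 fold change of FF over RF was 1.20 ± 0.43 (SE of the fit). It was 0.82 without FF1 and 1.58 without RF2, the lowest and highest values with 1 hen left out. Among all tested genes 13.1% had both FF hens above every RF hen, and 2.44% had a log2 fold change at least as high as that of APOA1. APOA1 took 3.23% of the counts in FF1 (95% Wilson interval 3.21 to 3.24%) and 0.690% in RF3 (0.682 to 0.698%). These intervals cover counting error only, and they are far narrower than the spread between hens. In whole tissue, a change in the number of cells that make a transcript and a change in the RNA per cell cannot be told apart. FF1, the hen with the most APOA1, also had the highest sum of stellate cell and fibroblast markers (1816 CPM, all 9 in the table of 14 listed detected). FF2, next in APOA1, had 951 CPM, below RF1 (1194 CPM) and RF2 (1235 CPM), while RF3 had 798 CPM. The sum of hepatocyte markers, led by TF, APOB and FGA, was lowest in FF1 (110689 CPM) and highest in RF3 (149241 CPM), the hen with the least APOA1. It was 140285 CPM in FF2, 145981 CPM in RF1 and 111283 CPM in RF2. Gene by gene, 7 of 8 tested stellate cell and fibroblast markers lay above 0, with a median of FF over RF of 0.35 (log2). That median stayed positive under every alternative, between 0.10 (replicate block) and 0.62 (FF2 left out). Of 12 tested hepatocyte markers 5 lay above 0, with a median of -0.07 that ranged from -0.23 (FF2 left out) to 0.08 (RF3 left out). By edgeR quasi-likelihood 0 genes of these lists had an adjusted p under 0.05. The part of either cell type in the APOA1 values was not tested.

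ABCA1 lay the other way, lower in both FF hens than in any RF hen. It stood at 109 CPM in FF1 and 108 CPM in FF2, and at 193 CPM in RF1, 146 CPM in RF2 and 127 CPM in RF3. The FF hens were nearly equal, while the RF hens ranged over 1.52-fold. The step from FF1 up to RF3 was 1.16-fold, smaller than that spread within RF, so RF3 and the FF hens are not separated beyond the spread. The FF mean was 109 ± 0.804 CPM (SD, n = 2) and the RF mean 155 ± 34.3 CPM (SD, n = 3), so that FF was at 0.699 of RF. The log2 fold change was -0.52 ± 0.29 (SE of the fit), and it was -0.32 without RF1 and -0.64 without RF3. Among all tested genes 13.9% had both FF hens below every RF hen, and 15.9% had a log2 fold change as low as that of ABCA1 or lower.

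Counting error bears more on ABCA1 than on APOA1, since its libraries held 297 (FF2) to 822 (RF1) of its estimated counts. Its share of all counts was 0.0115% in FF1 (95% Wilson interval 0.0106 to 0.0125%), 0.0111% in FF2 (0.00994 to 0.0125%) and 0.0121% in RF3 (0.0112 to 0.0132%). These 3 intervals overlap. The share was 0.0183% in RF1 (0.0171 to 0.0196%) and 0.0148% in RF2 (0.0135 to 0.0161%), and both of these intervals lay above all 3. Macrophages and endothelial cells also express ABCA1. All 5 sinusoidal and vascular endothelial markers in the table, of 13 listed, were detected, and their sum was 384 to 554 CPM in FF and 679 to 924 CPM in RF. The groups did not overlap in that sum, which, like ABCA1, was lower in FF. All 9 macrophage and Kupffer cell markers in the table, of 17 listed, were detected too. Their sum overlapped between the groups (2453 to 4006 CPM in FF and 3530 to 5840 CPM in RF). Gene by gene, however, only 1 of these 9 lay above 0, and the median of FF over RF was -0.37 (log2). That median stayed negative under every alternative, between -0.49 (RF1 left out) and -0.18 (FF2 left out). Of the 5 endothelial genes 0 lay above 0, with a median of -0.85. By edgeR quasi-likelihood 0 genes of either list had an adjusted p under 0.05. At an unadjusted p under 0.05 the same test gave 2 endothelial genes lower in FF (KDR and LYVE1) and 0 macrophage genes. Over all tested genes 4.94% were lower at that p. Both FF hens were below every RF hen in 3 of the 5 endothelial and 0 of the 9 macrophage genes, beside 13.9% of all tested genes. The part of either cell type in the ABCA1 values was not tested.

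**Figure D1:**
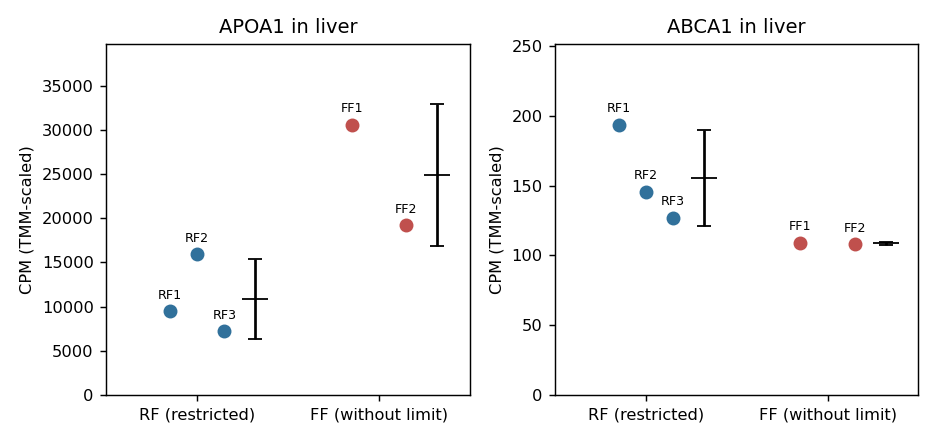
Levels of APOA1 (left) and ABCA1 (right) in CPM, 1 point per hen, with the mean and SD of each feeding group as a black bar (RF, 3 hens on restricted feed; FF, 2 hens fed without limit). APOA1 lies between 7209 and 15925 CPM in RF and at 19217 and 30578 CPM in FF, and ABCA1 between 127 and 193 CPM in RF and at 108 and 109 CPM in FF.

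Set against each other within each hen, both genes give a ratio that does not depend on how the libraries are scaled. For every ABCA1 count there were 280 APOA1 counts in FF1 and 178 in FF2, against 48.9 in RF1, 109 in RF2 and 56.8 in RF3. These ratios are not corrected for transcript length, so only their differences between hens can be read. The ratio was higher in both FF hens than in any RF hen, with RF2 again the RF hen nearest to FF. This separation, and the sign of the difference below, follow from the opposite differences for which both genes were chosen. They are therefore no evidence beyond the values of each gene. On the log2 scale the ratio averaged 7.80 ± 0.46 (SD, n = 2) in FF and 6.07 ± 0.62 (SD, n = 3) in RF, a difference of 1.73. Leaving out 1 hen at a time moved that difference between 1.40 (without FF1) and 2.08 (without RF2). Within RF the genes did not mirror each other. RF3 had the least APOA1 and also the least ABCA1 of its group, and RF2 had more of both than RF3.

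**Figure D2:**
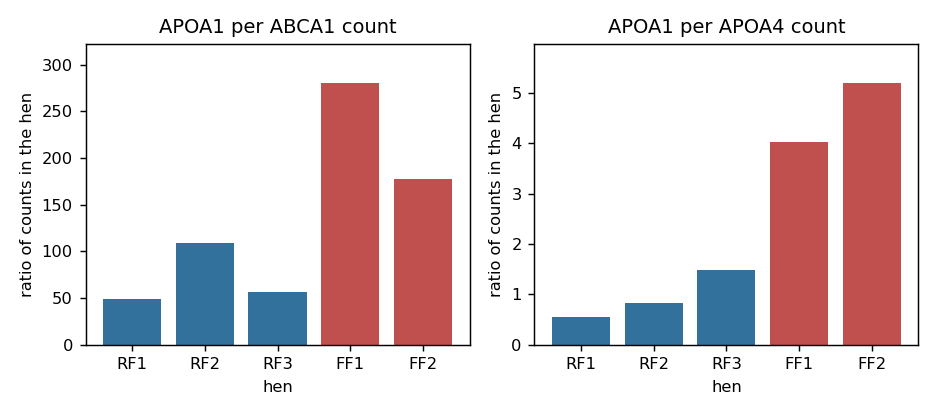
Counts of APOA1 per count of ABCA1 (left) and per count of APOA4 (right) in each hen, not corrected for transcript length, with RF hens in blue and FF hens in red. The APOA1 to ABCA1 ratio is 48.9 to 109 in RF and 178 to 280 in FF, and the APOA1 to APOA4 ratio is 0.556 to 1.49 in RF and 4.03 to 5.19 in FF.

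The direction of both differences was the same under every scaling, filter and tool tried, and with each hen left out. Under the alternatives that kept all 5 hens without a block, the log2 fold change of APOA1 was 1.19 (no filter on low counts) to 1.29 (scaling by library totals alone). That of ABCA1 was -0.52 to -0.41 under the same pair of alternatives. With replicate number as a block, APOA1 was at 0.98 and ABCA1 at -0.63. Only RF has a replicate 3, so RF3 adds nothing to the difference in that fit. Its values lay near those without RF3 (0.97 for APOA1 and -0.64 for ABCA1). Scaling by library totals alone raised the median of all tested genes by 0.10 (log2). The alternatives share the same hens, and groups that do not overlap fix the direction.

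**Figure D3:**
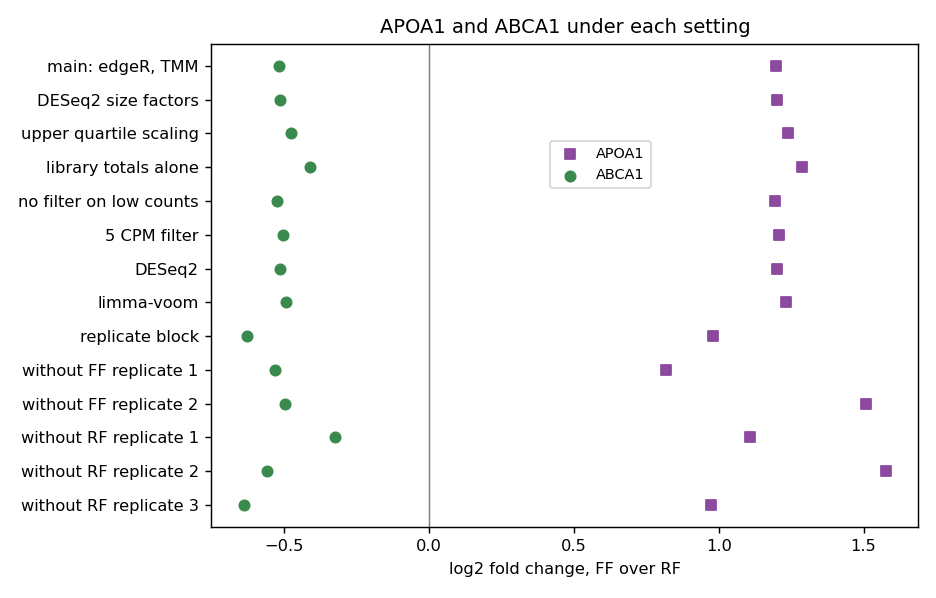
Log2 fold change of FF over RF (2 against 3 hens) for APOA1 (squares) and ABCA1 (circles) under the main setting and each alternative. APOA1 stays between 0.82 and 1.58 and ABCA1 between -0.64 and -0.32, and neither crosses 0.

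The other genes of HDL metabolism, lipoprotein assembly, sterol control and transport were then read from 8 lists. Without APOA1 and ABCA1 they held 74 tested genes, of which 0 passed the edgeR quasi-likelihood test over all genes (Benjamini-Hochberg adjusted p under 0.05), where 0.0464% of all tested genes passed. At an unadjusted p under 0.05 the same test gave 8 higher and 3 lower in FF, while over all tested genes 4.41% were higher and 4.94% lower at that p, 9.35% in all. DESeq2 called 4 of the 74 as higher in FF and 0 as lower, where over all tested genes it called 0.719% as higher and 1.11% as lower, 1.83% in all. Limma-voom called 0 of the 74. The median log2 fold change of the 74 was 0.03, beside 0.01 over all tested genes. Genes of these lists are therefore given by their values, and the DESeq2 calls are named.

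In HDL remodelling, 4 genes other than the pair were tested, and 0 passed by edgeR quasi-likelihood, DESeq2 or limma-voom (0 also at an unadjusted p under 0.05 in edgeR). Their median log2 fold change was 0.38, with 3 of 4 above 0, but it was -0.35 without FF1 and 0.75 without FF2. The phospholipid transfer protein gene PLTP, whose product moves phospholipid onto HDL, was at 29.1 CPM in FF1 and 4.0 CPM in FF2, while RF hens held 8.65 to 14.4 CPM. Clusterin (CLU), an HDL-associated chaperone, was at 1217 CPM in FF1 and 119 CPM in FF2, with RF hens at 154 to 286 CPM. In both genes FF1 was the highest hen and FF2 the lowest, so the FF mean of neither describes its hens, and the log2 fold changes of 0.68 ± 0.69 and 1.66 ± 0.78 became -1.41 and -0.83 without FF1. The paraoxonase PON2, which limits lipid oxidation, was nearly level at 0.08 ± 0.29. The receptor and exporter genes SCARB1, ABCG1, ABCG5 and ABCG8, the cholesterol-esterifying LCAT and the hepatic lipase LIPC were not analysed here.

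Among the apolipoprotein and very low density lipoprotein (VLDL) genes, APOA4 is a near neighbour of APOA1 on chromosome 24, and it lay on the opposite side of 0. APOA4 encodes a further exchangeable apolipoprotein. It was at 7588 CPM in FF1 and 3700 CPM in FF2, and at 17036 CPM in RF1, 19024 CPM in RF2 and 4842 CPM in RF3. RF1 and RF2 were high, while RF3 lay between the FF hens, so the groups overlapped. Its log2 fold change was -1.27 ± 0.63 (adjusted p = 0.574, edgeR quasi-likelihood) and ranged from -1.89 (without FF1) to -0.83 (without FF2). Within each hen, APOA1 counts per APOA4 count were 4.03 in FF1 and 5.19 in FF2, against 0.556 in RF1, 0.837 in RF2 and 1.49 in RF3. This pair was chosen after its values were seen, and its ratio is a description. The intestinal epithelium list, of which 5 of 8 genes in the table were detected, summed to 1946 to 2854 CPM in FF and 2854 to 4008 CPM in RF. ANPEP had the highest mean level in that list, and CDX1, CDX2 and FABP2 were listed at 0. The part of intestinal cells in the APOA4 values was not tested.

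The other 7 tested genes of the list held 5 above 0, and with APOA4 the median of the list was 0.06. By the edgeR quasi-likelihood test 0 of the 8 passed (2 higher and 0 lower at an unadjusted p under 0.05), and DESeq2 and limma-voom called 0. APOB, the structural protein of VLDL and yolk lipoprotein, and APOH were level at 0.08 ± 0.39 and 0.05 ± 0.35. MTTP, which loads lipid onto APOB, was at 106 and 163 CPM in FF and at 47.9 to 88.5 CPM in RF, so both FF hens were above every RF hen (log2 fold change 0.85 ± 0.35, edgeR quasi-likelihood adjusted p = 0.524). It was 0.52 without FF2 and 1.12 without FF1. SAR1B, a GTPase of the coats that carry large lipoproteins out of the endoplasmic reticulum, lay at 0.58 ± 0.28, also without overlap.

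Of the ABC transporter family, to which ABCA1 belongs, 8 other members were tested. By edgeR quasi-likelihood 0 passed (0 higher and 1 lower at an unadjusted p under 0.05), DESeq2 and limma-voom called 0, and 4 lay above 0 with a median of 0.05. ABCD2, a peroxisomal importer of very long chain fatty acids, was at 169 and 134 CPM in FF and at 235 to 470 CPM in RF. Like ABCA1 it had both FF hens below every RF hen, at -1.27 ± 0.37 on the log2 scale (adjusted p = 0.427, edgeR quasi-likelihood). ABCE1, a ribosome recycling factor that carries nothing across membranes, and ABCC4, an exporter of organic anions, lay at 0.56 ± 0.27 and 0.41 ± 0.36 with both FF hens above every RF hen.

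The LXR and sterol regulated genes lay on both sides of 0. ABCA1 transcription is known to be driven by the oxysterol receptor LXR, while falling sterol turns on cholesterol synthesis through SREBP2. NR1H3, the LXR alpha gene, was at 503 CPM in FF1 and 305 CPM in FF2, and at 620 CPM in RF1, 582 CPM in RF2 and 565 CPM in RF3. Both FF hens were below every RF hen, at -0.54 ± 0.32 on the log2 scale (adjusted p = 0.614, edgeR quasi-likelihood), -0.95 without FF1 and -0.21 without FF2. SREBF1, itself an LXR target, lay at -0.22 ± 0.46 and changed sign without FF2. Further members that lay lower in FF, named after their values were seen, were the sterol-dependent SREBP retention genes INSIG2 (-0.80 ± 0.34, -1.31 without FF1 and -0.41 without FF2) and INSIG1 (-0.70 ± 0.46, -0.42 without FF1 and -1.04 without FF2), and the LXR partner RXRG (-0.73 ± 0.43, -1.39 without FF1 and -0.27 without FF2). INSIG2 was the list's lower gene at an unadjusted p under 0.05 (edgeR quasi-likelihood, adjusted p = 0.524). On the other side of 0 the list held PLTP (0.68 ± 0.69, -1.41 without FF1) and MYLIP (0.67 ± 0.36) among others. MYLIP was also named after its values were seen.

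Cholesterol synthesis genes of the same list were higher in FF by DESeq2. SQLE, which makes the epoxide that is cyclised to sterol, was at 272 and 193 CPM in FF and at 80.9 to 112 CPM in RF. CYP51A1, the lanosterol demethylase, was at 1182 and 1904 CPM in FF and at 399 to 652 CPM in RF. Neither gene overlapped between the groups. Their log2 fold changes were 1.24 ± 0.29 and 1.60 ± 0.36, with DESeq2 adjusted p of 0.0185 and 0.00274 and edgeR quasi-likelihood adjusted p of 0.276 and 0.266. Of the list's 11 tested genes 0 passed in edgeR (4 higher and 1 lower at an unadjusted p under 0.05), 3 were called higher by DESeq2 and 0 by limma-voom, 6 lay above 0 and the median was 0.67. That median rested on 1 hen for its sign, at -0.42 without FF1, and it was 0.35 without FF2, 0.34 by limma-voom, 0.22 with no filter and 0.08 with the replicate block.

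The list of regulators of APOA1 and ABCA1 transcription had 20 tested genes, and 0 passed by edgeR quasi-likelihood (1 higher and 1 lower at an unadjusted p under 0.05), DESeq2 or limma-voom. Of these, 10 lay above 0 and the median was 6.52e-04. HNF4A, a nuclear receptor that drives liver apolipoprotein genes in mammals, was at 158 and 201 CPM in FF and at 64.6 to 116 CPM in RF, without overlap (log2 fold change 0.87 ± 0.33, edgeR quasi-likelihood adjusted p = 0.503). PPARGC1A, a coactivator of fasting metabolism, was at 3.08 and 4.73 CPM in FF and at 6.31 to 30.8 CPM in RF, where RF3 lay close to the FF hens (-2.26 ± 0.70, -1.64 without RF1, edgeR quasi-likelihood adjusted p = 0.436). The fatty acid sensor PPARA lay at 0.72 ± 0.55. ESR1, an oestrogen receptor, lay at 0.21 ± 0.40, and both genes changed sign when single hens were left out. FOXA2, a liver transcription factor, lay at -0.73 ± 0.34 (-0.48 without FF2).

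Among the genes of cholesterol storage and traffic, the values were led by bile acid enzymes, which serve another route by which the liver disposes of cholesterol. Of 11 tested genes 0 passed by edgeR quasi-likelihood (2 higher and 0 lower at an unadjusted p under 0.05), DESeq2 called 1 as higher and limma-voom 0, and 5 lay above 0 with a median of -0.09. CYP7A1, which starts the conversion of cholesterol to bile acid and was the gene called by DESeq2, was at 263 and 308 CPM in FF and at 76.7 to 111 CPM in RF (log2 fold change 1.59 ± 0.28, DESeq2 adjusted p = 1.88e-04, edgeR quasi-likelihood adjusted p = 0.136). CYP8B1, which sets the kind of bile acid made, lay at 1.28 ± 0.59 (2.12 without RF3 and 0.77 without FF1). The groups overlapped in CYP8B1, with FF2 at 66.5 CPM below RF3 at 72.9 CPM. The sterol carrier STARD4 lay at 1.24 ± 0.48 (0.68 without FF2). SOAT1 and NPC1 were not analysed here.

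Genes whose proteins bind ABCA1, set its turnover or carry its signals were spread on both sides of 0. Of 15 tested 0 passed by edgeR quasi-likelihood, also 0 at an unadjusted p under 0.05, and DESeq2 and limma-voom called 0, with 8 above 0 and a median of 0.12. The trafficking GTPase RAB8A lay at 0.47 ± 0.25 (0.31 without FF2) and the endocytic GTPase ARF6 at -0.73 ± 0.35 (-1.20 without FF1 and -0.37 without FF2). Of the microRNAs known to target ABCA1 in mammals, 20 were in the table, MIR33 and MIR144 among them, and all 20 were listed at 0 in every hen, so they give no comparison.

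**Figure D4:**
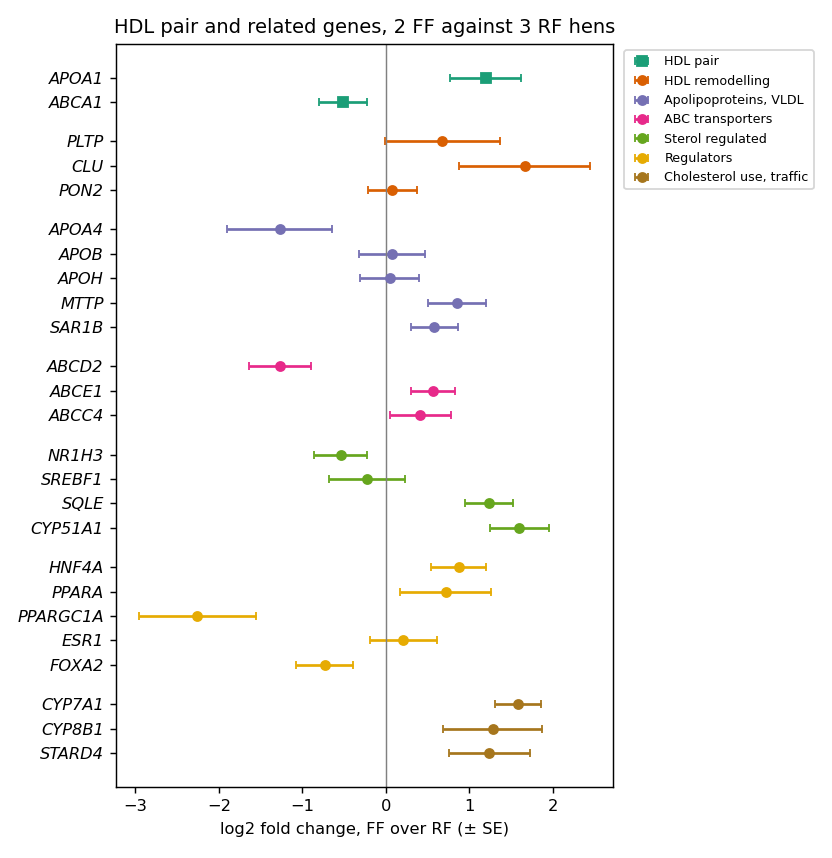
Log2 fold change of FF over RF with its SE (2 against 3 hens) for APOA1 and ABCA1 (squares) and the related genes named in the text (circles), coloured by role. APOA1 lies at 1.20 and ABCA1 at -0.52, while APOA4 and ABCD2 lie at -1.27 and the synthesis genes SQLE and CYP51A1 at 1.24 and 1.60.

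The table genes beside each member were read from the GRCg7b annotation, used here only for gene order. Around APOA1, beyond APOA4, BUD13 lay at -0.14 ± 0.25 (-0.27 without FF2), PAFAH1B2 at -0.03 ± 0.26, TAGLN at 0.57 ± 0.61 and PCSK7 at -0.38 ± 0.30 (-0.76 without FF1 and -0.07 without FF2) on the log2 fold change scale. TAGLN, a smooth muscle gene, changed sign without FF1. Around ABCA1 on chromosome Z the nearest tested genes lay farther away in gene order. They were FUT10 at -0.09 ± 0.57, with 8 to 11 estimated counts per hen, PHAX at -0.16 ± 0.25 and LMNB1 at -0.34 ± 0.47 (-0.20 without RF3). By edgeR quasi-likelihood none of these 8 tested neighbours, APOA4 included, had an adjusted p under 0.05 or an unadjusted one, and DESeq2 and limma-voom called 0. The lipoprotein lipase gene LPL, the table gene nearest to ABCA1, had 1 to 3 estimated counts per hen and was not tested.

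The genes with the most similar pattern over the 5 hens were found by the root mean square difference of log2 CPM, centred on each gene's mean, among 3732 tested genes whose log2 CPM averaged 3 or more. Nearest to APOA1 were TNFRSF21 (0.22), a death receptor, the growth factor FGF1 (0.26), the carbonic anhydrase CA2 (0.28), the phosphatase ACP1 (0.30) and SQLE (0.30), where APOA1 itself deviated from its own mean by 0.74. All 5 shared with APOA1 a peak in FF1, and their highest RF hen was RF2 except in SQLE, where it was RF1. Nearest to ABCA1 were YWHAG (0.05), a 14-3-3 adaptor, the transcription cofactor LDB1 (0.06), the ubiquitin ligase RNF11 (0.06), the mitochondrial deacetylase SIRT3 (0.07) and TMEM56 (0.08), against ABCA1's own deviation of 0.31. These 5 shared with ABCA1 a high value in RF1, then RF2, and low values in both FF hens. With 5 hens and 3732 genes, near patterns are a description of these libraries.

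**Figure D5:**
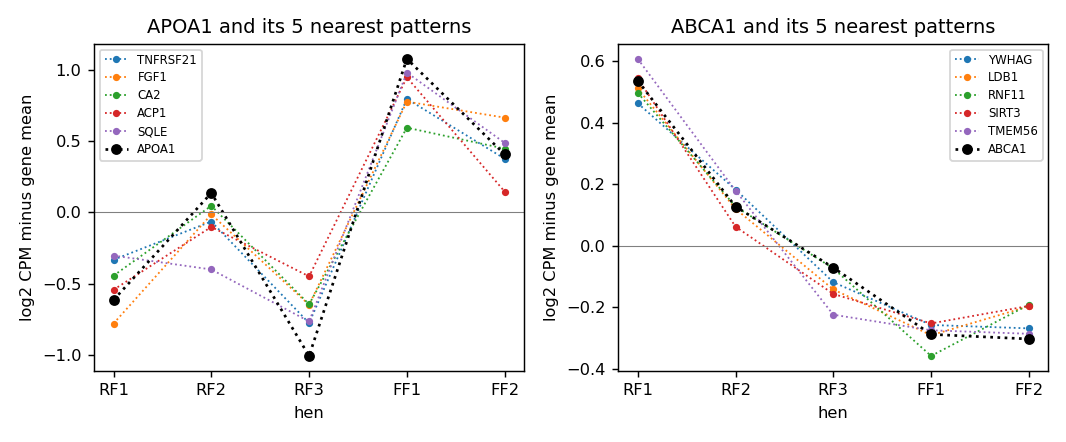
Log2 CPM minus each gene's mean over the 5 hens for APOA1 (left, black) and ABCA1 (right, black) with the 5 genes nearest in pattern, RF hens first and the dotted lines joining the values of 1 gene. APOA1 runs from -1.01 in RF3 to 1.08 in FF1, and ABCA1 from 0.54 in RF1 to -0.30 in FF2.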

How the data were processed

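The deposited table held the authors' estimated counts per gene symbol, 1 column per hen, with no normalization apparent in the column totals, and 51 of 6286 entries held fractional values. FastQC, TopHat2 2.0.13, Cuffdiff 2.2.1, edgeR and the build galGal4 are named, with no role or order, per the submitters' processing notes. The annotation, the treatment of reads that fit several genes and the use of strand in counting were each not given in the sources used here, so values of genes with close paralogues or overlapping neighbours are uncertain. Counts were rounded, filtered (edgeR filterByExpr, minimum count 10), scaled by TMM and tested two-sided in R 4.3.3 by the quasi-likelihood functions of edgeR 4.0.16 (glmQLFit, then glmQLFTest) on feeding group alone, with Benjamini-Hochberg adjustment over all 4309 genes and a threshold of 0.05. DESeq2 1.42.0 and limma-voom (limma 3.58.1) were alternatives, beside other scalings, filters, a replicate block and leaving out each hen. CPM are of the TMM-scaled library, and log2 CPM use a prior count of 2. The SE of a log2 fold change, for APOA1 and ABCA1 too, is its absolute value over the square root of the quasi-likelihood F statistic. P-values set the difference between the feeding groups against the spread between hens within a group. The steps were tested on simulated data. Members and lists were chosen with earlier results of these data known. The text names APOA1, ABCA1, a set of key genes, each list's calls or else its 3 smallest p, the 5 nearest patterns, and neighbours in the annotation (some genes that fell under this rule are not reported here), where 6116 of the table's entries matched by symbol. No sequence was used here, and promoter motifs were not analysed here.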

Additional observations from a re-analysis of the deposited data

How the results depend on the processing

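APOA1, ABCA1 and their ratio kept their direction under all alternatives run and moved by less than 1 SD between hens. With groups that do not overlap in either gene, those directions were fixed, that of the ratio included. The count of genes called over the whole table did not hold. Against 2 genes (2 higher and 0 lower in FF), it was 6 (4 and 2) with no filter on low counts, 1 (1 higher) with the 5 CPM filter, 79 (31 and 48) by DESeq2 and 6 (5 and 1) with the replicate block, and limma-voom called 3 (2 and 1). With 1 hen left out it ran from 0 to 8 (0 to 5 higher and 0 to 3 lower), 0 without FF2, RF1 or RF2, 6 without FF1 and 8 without RF3. The list genes called were 0, and 4 by DESeq2. The cause was not tested. Some named genes changed sign, CLU, PLTP and PPARA among them, which were not near 0 with all hens. List medians near 0 also changed sign with single hens left out, those of the apolipoprotein, ABC transporter, regulator and cholesterol traffic lists. All of these but the apolipoprotein list also changed sign with no hen left out. The cholesterol traffic median (-0.09) was 0.02 with library totals alone, 0.03 with no filter and 0.46 with the 5 CPM filter. The ABC transporter median (0.05) was -0.02 with the replicate block. The regulator median (6.52e-04) was -0.01 with no filter, -0.09 by limma-voom and -0.22 with the replicate block. With 1 hen left out the log2 fold change ran from -1.41 to 1.47 for PLTP, -0.83 to 2.54 for CLU, -0.27 to 0.36 for APOB, -0.16 to 0.23 for APOH, -1.15 to 0.35 for SREBF1, -0.17 to 1.27 for PPARA, -0.053 to 0.61 for ESR1, -0.027 to 0.16 for PON2, -0.24 to 0.16 for PAFAH1B2, -0.86 to 1.26 for TAGLN and -0.50 to 0.30 for FUT10. PAFAH1B2 was at 0.0037 with upper quartile scaling and 0.073 with library totals alone, where FUT10 was at 0.0088. Replicate numbers are not said to pair hens. Correlations of deviations across genes were -0.143 (FF1 and RF1) and -0.355 (FF2 and RF2) for same-numbered hens. For the crossed pairs they were 0.143 (FF2 and RF1) and 0.355 (FF1 and RF2). With 2 FF hens, the deviations of FF1 and FF2 mirror each other, which fixes the crossed values. The correlations therefore cannot decide whether the numbers pair hens. With the replicate block, where RF3 adds nothing to the difference, APOA1 lay at 0.98, ABCA1 at -0.63 and the log2 ratio difference at 1.61. Depth limits ABCA1, with 297 counts in FF2, more than APOA1.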

Other observations

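Markers of the remaining cell types were summed in each hen as a description. The lymphocyte list, with all 11 genes in the table of 15 listed detected, summed to 184 and 315 CPM in FF and to 140 to 216 CPM in RF, and 9 of 11 tested genes lay above 0 (median log2 fold change 0.65, at 0.13 without FF2, 0.41 without RF1, 0.95 without FF1 and 0.28 by limma-voom). By the edgeR quasi-likelihood test 0 of the 11 passed, 1 was higher at an unadjusted p under 0.05, and DESeq2 and limma-voom called 0. The adipocyte list (6 of 7 in the table, all detected) summed to 250 and 117 CPM in FF and to 663, 807 and 179 CPM in RF1, RF2 and RF3, so RF3 lay with the FF hens, as it did for APOA4. DESeq2 called 1 of the 4 tested adipocyte list genes as lower in FF, where over all tested genes it called 1.11% as lower. That gene, the lipid droplet gene CIDEC, was named after its values were seen and had the highest mean level in the list. The edgeR quasi-likelihood test and limma-voom called 0 of the 4. Only ADIPOQ lay above 0, at a log2 fold change of 0.49 ± 0.48. The erythroid sum was 3723 and 3641 CPM in FF and 1117 to 4262 CPM in RF, the cholangiocyte sum 241 and 129 CPM in FF and 239 to 278 CPM in RF with KRT7 listed at 0, and the heterophil and thrombocyte sum 111 and 64.7 CPM in FF and 86.7 to 200 CPM in RF.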
